A study of Mus musculus with 32 samples.

Results

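PV and SST interneurons of the mouse cortex are compared here by the RNA that was associated with their ribosomes. The comparison takes the 4 libraries titled PV and the 4 titled SST, all labelled cortex and all numbered without the W that other titles carry, which makes 8 of the 32 libraries of the series. The series maps transcripts engaged by ribosomes in genetically defined neuron populations of the forebrain. Its other groups, of 4 libraries each, are VIP, CamK and Scnn cortex and SST, CamK and Grik hippocampus. Every library, PV and SST included, is labelled as wild type and as ribosome-associated RNA. The driver line or promoter behind each population, the isolation of ribosomes, the age and sex of the animals and the origin of replicates from separate animals were not given in the sources used here. All p-values therefore measure a spread between libraries, which may be technical. Those from edgeR use a spread estimated over all 32 libraries, not only the 8 compared. The exact permutation tests use the 8 PV and SST libraries.

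As background, PV (parvalbumin) and SST (somatostatin) neurons are the main classes of cortical inhibitory interneurons that arise in the medial ganglionic eminence. PV neurons, mostly fast-spiking basket and chandelier cells, inhibit the cell bodies and axon initial segments of pyramidal neurons. SST neurons, many of them Martinotti cells, inhibit distal dendrites, and are themselves inhibited by VIP interneurons, which arise in the caudal ganglionic eminence. CamK, Scnn and Grik are read here as excitatory populations, which is field knowledge that the labels do not state. RNA bound to ribosomes of a tagged cell type reports which transcripts that type engages in translation.

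The rows of the deposited table, called features here, have identifiers (GSMG and digits) that no file pairs with gene names, and the reference tables held 0 of these identifiers. Neither group could thus be checked on marker genes such as those encoding parvalbumin and somatostatin, and the lists of interneuron markers, channels, receptors, peptides and adhesion molecules could not be tested. For the same reason no sequence is shown. A group is called by its title, and at most 2 features higher in each group are named. In bulk RNA, fewer cells of a type and less RNA per cell cannot be told apart.

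The 8 libraries were alike in depth, with 104350512 to 110280017 deposited counts each. PV libraries totalled 107188000 ± 2586000 and SST libraries 106300000 ± 2294000 (SD, n = 4 each; exact permutation test, two-sided p = 0.686). Levels are given as CPM, counts relative to library size after TMM scaling. Spearman correlations across features were 0.976 to 0.98 between PV libraries, 0.98 to 0.984 between SST libraries and 0.949 to 0.961 between the classes. The root mean square log2 difference was 0.89 to 0.948 within PV, 0.774 to 0.909 within SST and 1.19 to 1.38 between them. The range between the classes thus lay above both ranges within them, which overlapped each other. The first principal component of the 8 libraries took up 48.9% of the variance and set PV (63 to 91.7) apart from SST (-89.2 to -74.1). The lowest PV value, 63, belonged to PV replicate 1, and the other PV libraries lay at 83.2 or more. PV libraries also differed more among themselves. The common biological coefficient of variation was 0.294 over the PV libraries and 0.212 over the SST libraries. Leaving out PV replicate 1 lowered the PV value to 0.257, while leaving out any other PV library gave 0.291 to 0.307, and the SST values without 1 library were 0.194 to 0.23. All PV coefficients thus stayed above all SST coefficients in these descriptions, which carry no test.

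Of 4 measures of whole libraries, none had an adjusted p under 0.05 between PV and SST, though the share of counts in the most abundant features did not overlap. The 100 most abundant features of a library held 23.9%, 23.9%, 22.1% and 24% of its counts in PV replicates 1 to 4, and 20.8%, 21.6%, 21.6% and 21.7% in the SST replicates. The means were 23.5% ± 0.927 in PV and 21.4% ± 0.388 in SST (SD, n = 4). An exact permutation test gave a two-sided p = 0.0286, the smallest that 4 against 4 libraries can give, and an adjusted p = 0.114 over the 4 measures. A measure that alone reaches this smallest p cannot pass 0.05 after adjustment over 4 measures. The adjusted value therefore cannot decide whether this share differs. Features that reached 1 CPM numbered 13923.5 ± 159.9 in PV and 14112 ± 102.3 in SST (exact permutation test, two-sided p = 0.114, adjusted p = 0.228), with overlapping libraries. The share of counts in features that were too low to test was 0.0106% ± 0.00284 in PV and 0.00866% ± 0.00193 in SST (exact p = 0.286, adjusted p = 0.381).

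Of 24555 features tested, 3723 (15.2%) were called different between PV and SST cortex, that is at an edgeR adjusted p under 0.05 and at least 2-fold. SST had the longer list, with 2230 features higher in SST (9.08%) and 1493 higher in PV (6.08%), so that 59.9% of the calls were higher in SST. The size of this excess varied with the processing at the same cutoffs. The share higher in SST ran from 55% with upper-quartile scaling to 61.6% without a filter on low counts. It was 55.5% in a fit of only the 20 cortical libraries. The 4 PV and 4 SST libraries did not overlap in 3303 of the called features (88.7%). Over all features tested, called or not, they did not overlap in 9180 (37.4%), with PV above SST in 17.8% and below it in 19.6%. The excess on the SST side also depended on the size of the difference. With no minimum fold, 9521 features passed (38.8%) and 53.8% of them were higher in SST. When the difference itself was tested against 2-fold (edgeR's glmTreat, adjusted p under 0.05), 1750 features passed and 71.2% of them, 1246, were higher in SST.

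Large differences made up more of the SST list than of the PV list. At least 4-fold higher were 1087 of the 2230 SST features (48.7%) and 474 of the 1493 PV features (31.7%). At least 16-fold higher were 317 SST features (14.2%) and 123 PV features (8.24%), and at least 32-fold 170 (7.62%) and 78 (5.22%). The median log2 difference, PV minus SST, was -1.96 in the SST list and 1.52 in the PV list, against 0.04 over all features tested. Fitted differences of features that are nearly at 0 in a group depend on the prior count, so the largest of these folds are no exact sizes.

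**Figure D1:**
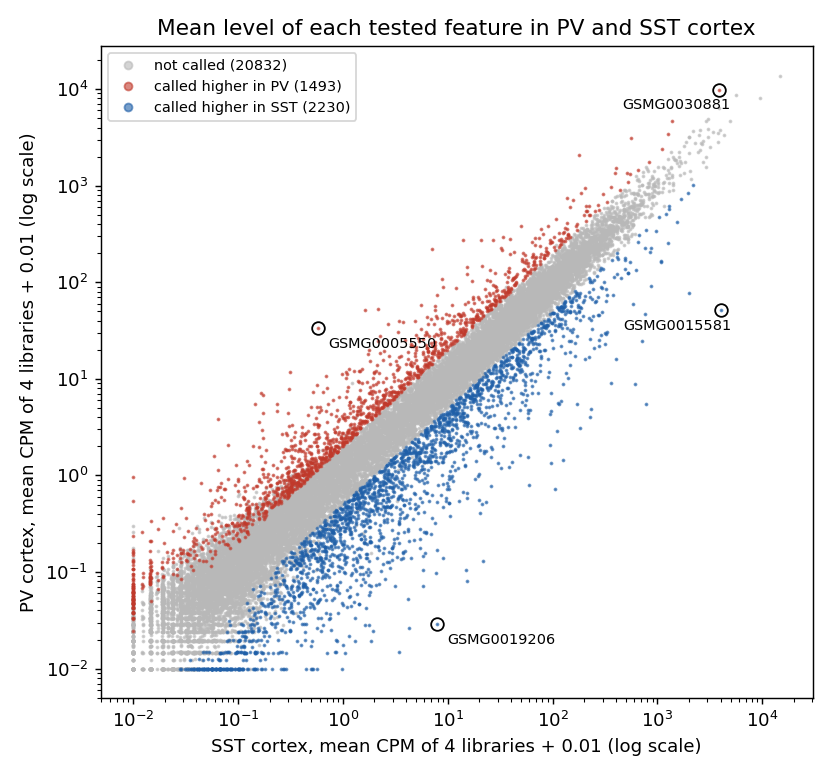
Mean CPM of each of the 24555 tested features in SST cortex (horizontal) and PV cortex (vertical), both plus 0.01 on log axes, each the mean of 4 libraries. Features called higher in PV (1493) and in SST (2230) lie on either side of the band of features that were not called, and the 4 features named in the text are circled.

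Few called features were present in every library of 1 class and nearly absent from every library of the other. All 8 libraries were at 1 CPM or more for 882 SST features (39.6%) and 660 PV features (44.2%). By contrast, 16 features were at 1 CPM or more in every SST library and under 0.1 CPM in every PV library, and 0 features had the opposite pattern. The mean of the lower group was under 0.1 CPM in 505 SST features (22.6%) and in 257 PV features (17.2%), and at least 10 CPM in 372 (16.7%) and 305 (20.4%). The higher group reached 100 CPM or more for 8.39% of the SST features and 10.2% of the PV features. By another measure of level, the mean of PV and SST, 2140 of all 24555 features tested were at 100 CPM or more. The shares in this paragraph were not computed over all features tested. They describe the lists, and no conclusion is drawn from them.

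By level, taken as the mean of the PV and SST means, calls were most frequent from 1 to 10 CPM, where 1216 of 5080 features (23.9%) were called. From 0.1 to 1 CPM 19.1% were called, from 10 to 100 CPM 11.3%, at 100 CPM or more 10.9%, and under 0.1 CPM 8.23%. SST held 59.3% to 61% of the calls in the 4 lower classes, but at 100 CPM or more the calls were even, with 117 higher in PV and 116 higher in SST. Length had less to do with the calls. The median deposited length was 1740 bases in the SST list, 1640 bases in the PV list and 1640 bases over all features tested, and the share called ran from 9.16% of features of up to 500 bases to 18% of those over 4000 bases. Among the short features, up to 500 bases, 49 calls were higher in PV and 34 in SST, while in each longer class more were higher in SST.

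**Figure D2:**
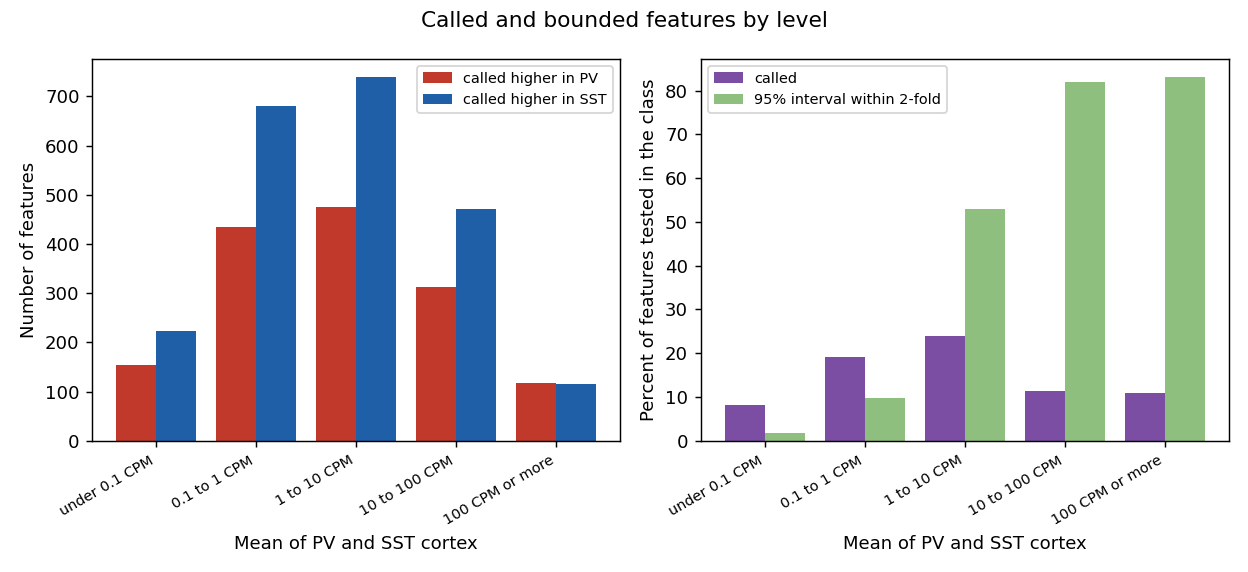
Features by their mean CPM over PV and SST cortex: on the left the number called higher in PV and in SST, on the right the percent of tested features that were called and the percent whose 95% interval lay within 2-fold. SST has the taller bars in the 4 lower classes and the bars are level (117 and 116) at 100 CPM or more, while the bounded share climbs from 1.82% to 83.2%. The 1.82% includes features with no counts in PV and SST, whose interval has no width.

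For a large part of the features the data bound the difference between the classes. The 95% interval of the log2 difference lay wholly within 2-fold for 10813 features (44%), and within 1.5-fold for 6274 (25.6%). An interval within 2-fold was found for 82.1% of features at 10 to 100 CPM and 83.2% at 100 CPM or more, but for 1.82% of those under 0.1 CPM. The 83 features behind that 1.82% include some with no counts in any PV or SST library. Their interval has no width, so they are counted as bounded although the data bound nothing for them. A further 10019 features (40.8%) were neither called nor bounded within 2-fold, so for these the libraries do not show whether PV and SST differ by 2-fold.

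Measured as shares of the libraries, the bounded features held 79.5% ± 1.08 of all counts in PV and 78.9% ± 0.778 in SST (SD, n = 4). Features called higher in PV held 8.69% ± 0.181 of PV counts and 3.13% ± 0.122 of SST counts. Features called higher in SST held 8.79% ± 0.407 of SST counts and 2.36% ± 0.139 of PV counts. These shares carry no test, because the lists were chosen on the same libraries. PV replicate 1 had the largest share in the SST list among the PV libraries, 2.57% against 2.26% to 2.34%. Ranked per length (CPM per kb of deposited length), the 100 highest features of PV and the 100 highest of SST had 78 in common. The PV 100 held 9 features called higher in PV and 0 called higher in SST, and the SST 100 held 6 called higher in SST and 4 called higher in PV. Over all features tested 6.08% were called higher in PV and 9.08% higher in SST. Each 100 was chosen on the level of its own class, which favours features called higher in that class. No conclusion is therefore drawn from these counts. In each 100, 79 features were bounded within 2-fold, against 83.2% of the features at 100 CPM or more and 44% of all tested.

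The direction of the calls was then read in libraries left out of the fit that made them. Each of the 8 libraries was left out in turn, features were called from the remaining 31 libraries, and the level of the left-out library (log2 CPM) was set against the mean of the 3 others of its group and the mean of the 4 of the other group. The left-out library was not wholly apart, since only features among the 24555 that passed the filter on all 32 libraries were read, and the scaling of log2 CPM also used all of them. For features higher in its own group, PV replicates 1 to 4 lay nearer to PV in 82%, 94%, 86.5% and 92.1%, and SST replicates 1 to 4 nearer to SST in 95.8%, 94%, 95.8% and 96.3%. For features lower in its own group, the PV libraries lay nearer to PV in 84.9%, 86.5%, 94.3% and 91.4%, and the SST libraries nearer to SST in 90.8%, 89.8%, 87.7% and 81.4%. Over all features tested these shares were 61.9% to 75.4%. Every library thus fell on the side of its own label for at least 81.4% of the features in either list. PV replicate 1 had the lowest shares of the PV libraries in both lists. SST replicate 4 had the lowest share of the SST libraries for features higher in PV, but the highest, 96.3%, for features higher in SST. In PV replicate 1 the features higher in SST had a median log2 difference of 0.27 from the other PV libraries and of -1.59 from SST. In SST replicate 4 the features higher in PV had a median log2 difference of 0.25 from the other SST libraries and of -1.23 from PV. The cause of these shifts was not tested.

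**Figure D3:**
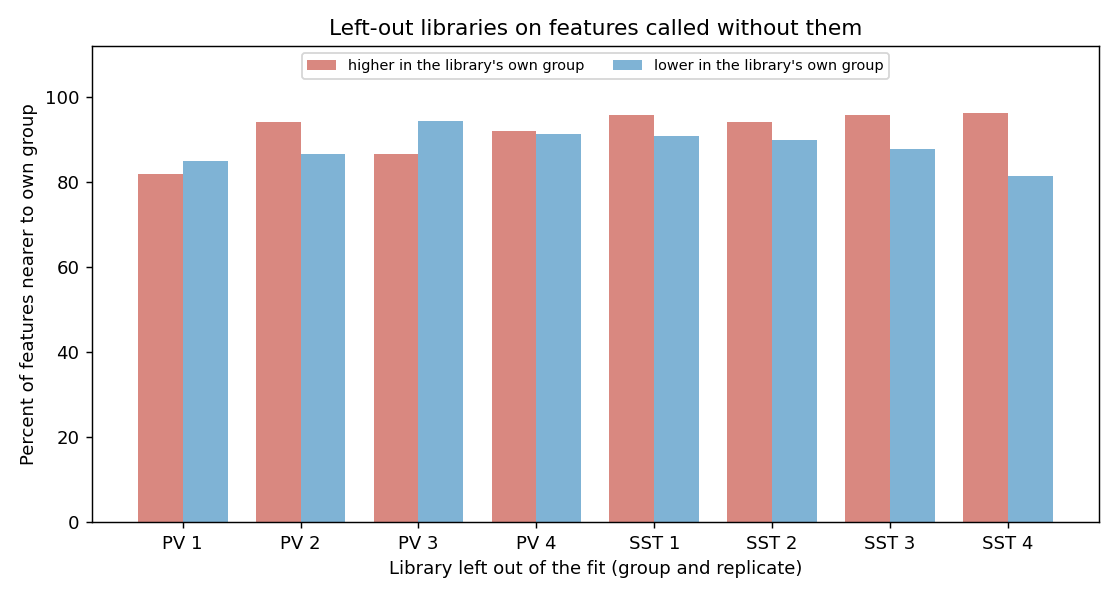
Percent of features (vertical axis, from 0) for which a library left out of the fit was nearer to the mean of its own group than to that of the other, for each of the 8 libraries. Red bars are features called higher in the library's own group, blue bars features called lower in it; the bars lie between 81.4% (SST replicate 4, blue) and 96.3% (SST replicate 4, red).

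GSMG0005550 (deposited length 3234 bases) had the largest fold on the PV side among called features without overlap and with at least 5 CPM in PV. It was on average highest in PV and at most 0.981 CPM in every other group. PV replicates 1 to 4 had 34.38, 24.98, 35.63 and 37.95 CPM, and SST replicates 1 to 4 had 0.685, 0.326, 0.245 and 1.01 CPM. Separation of the PV and SST libraries was a condition for naming a feature. The lowest PV library was over 20 CPM above the highest SST library. The means were 33.2 ± 5.7 CPM in PV and 0.566 ± 0.352 CPM in SST (SD, n = 4), a log2 difference of 5.87 (SE 0.40, 95% interval 5.05 to 6.70, edgeR adjusted p = 4.18e-13). The next group in order was Grik hippocampus at 0.981 ± 0.16 CPM, followed by CamK cortex (0.616 ± 0.0678 CPM), SST cortex, CamK hippocampus, Scnn cortex, VIP cortex (0.369 ± 0.254 CPM) and SST hippocampus (0.179 ± 0.0781 CPM). From CamK cortex downward each group overlapped the next in its libraries.

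GSMG0030881 (2188 bases) had the largest difference in CPM on the PV side among called features without overlap. It was among the highest features per length in both classes, rank 3 in PV and rank 21 in SST. Its level was 9793, 8708, 10880 and 10140 CPM in PV replicates 1 to 4 and 3902, 4039, 3854 and 3780 CPM in SST replicates 1 to 4. All PV libraries were above all SST libraries, which the choice of the feature required, and the SST libraries were close to each other. With means of 9880 ± 904.4 CPM and 3894 ± 109.1 CPM (SD, n = 4), the log2 difference was 1.34 (SE 0.07, 95% interval 1.20 to 1.49, edgeR adjusted p = 2.19e-16). Per length these means are 4516 CPM per kb in PV and 1780 CPM per kb in SST. SST hippocampus came second at 4398 ± 222.3 CPM, just above SST cortex and without overlap. Grik hippocampus (1645 ± 99.03 CPM), VIP cortex (1421 ± 59.05 CPM), Scnn cortex (1283 ± 96.12 CPM), CamK cortex (1224 ± 65.66 CPM) and CamK hippocampus (984.5 ± 99.32 CPM) all stood lower. Of these 5 groups, VIP and Scnn cortex overlapped, as did Scnn and CamK cortex. The feature was thus high in the PV and SST groups and higher in PV.

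GSMG0019206 (2869 bases) had the largest fold on the SST side and was lowest in PV. The deposited counts were 2, 1.98, 0 and 4 in PV replicates 1 to 4, and most low whole values in these libraries were even. SST replicates 1 to 4 had 7.45, 9.15, 6.31 and 8.59 CPM. The means were 7.87 ± 1.26 CPM in SST and 0.019 ± 0.0155 CPM in PV (SD, n = 4), a log2 difference, PV minus SST, of -8.62 (SE 0.60, 95% interval -9.85 to -7.40, edgeR adjusted p = 1.47e-13). With so few PV counts, the size of that estimate depends on the prior count. The PV libraries did not overlap with those of the next group, Grik hippocampus at 0.173 ± 0.075 CPM. SST hippocampus (1.98 ± 0.613 CPM) and VIP cortex (1.02 ± 0.207 CPM) came after SST cortex, each without overlap. The CamK groups of both regions, Scnn cortex and Grik hippocampus lay between 0.173 and 0.274 CPM on average and overlapped along that order.

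GSMG0015581 (598 bases) had the largest difference in CPM on the SST side among called features without overlap. It ranked first of all tested features per length in SST, at 6694 CPM per kb, against rank 1720 in PV at 86.7 CPM per kb. SST replicates 1 to 4 had 4368, 5288, 3889 and 2467 CPM. PV replicates 1 to 4 had 132.4, 35, 21.4 and 18.7 CPM, so PV replicate 1 stood apart from the other PV libraries while lying far below every SST library. The means were 4003 ± 1177 CPM in SST and 51.9 ± 54.1 CPM in PV (SD, n = 4), a log2 difference of -6.27 (SE 0.76, 95% interval -7.84 to -4.70, edgeR adjusted p = 2.12e-07). Without PV replicate 1 the log2 difference was -7.29 (SE 0.78, edgeR adjusted p = 4.29e-08; adjusted p of 5.71e-25 to 0.00366 over 22 alternatives). SST hippocampus was second, with 265.2, 923.3, 2669 and 2938 CPM from its lowest to its highest library, and overlapped SST cortex. Scnn cortex (67.4 ± 4.09 CPM), PV cortex and VIP cortex (50.8 ± 26.6 CPM) overlapped in turn. CamK cortex, Grik hippocampus and CamK hippocampus were lowest, at 9.53 to 14.6 CPM on average.

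**Figure D4:**
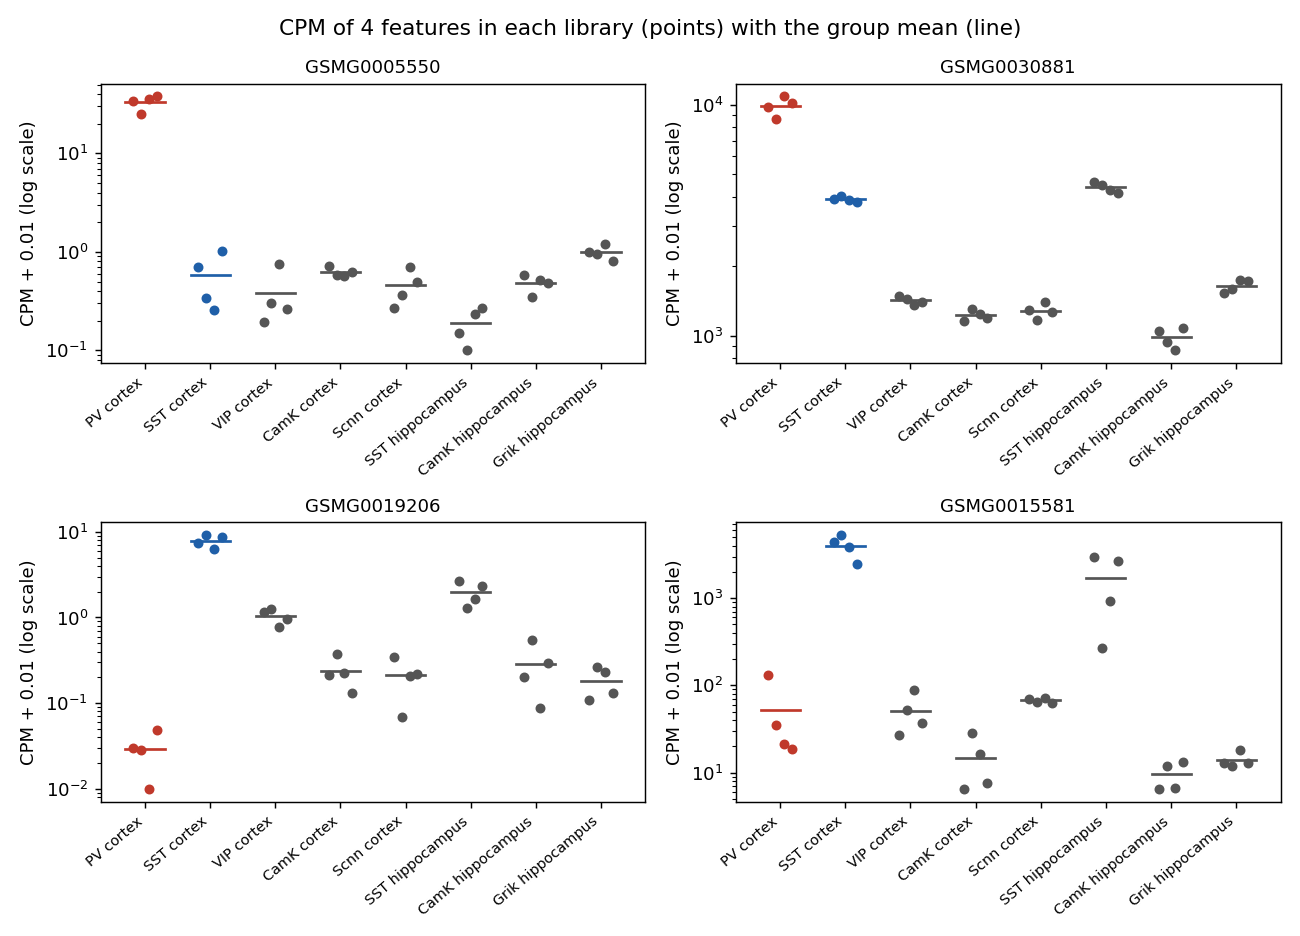
CPM plus 0.01 (log scale) of GSMG0005550, GSMG0030881, GSMG0019206 and GSMG0015581 in each library of the 8 groups, with points for the 4 libraries and a line for their mean. PV (red) is highest in the first panel, PV and both SST groups are high in the second, PV is lowest in the third, and in the last both SST groups are high and 1 PV library, replicate 1 at 132.4 CPM, stands above the other 3.

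Where the other populations lay on these features was measured against the midpoint of PV and SST, each group being compared with the mean of the PV and SST coefficients in the same fit. The comparison is not independent of the lists. PV libraries varied more than SST libraries (coefficients of variation of 0.294 and 0.212, above), and an error in the PV level that favours a place in the PV list also raises the midpoint, while one that favours a place in the SST list lowers it. Such errors move every other group below the midpoint in the PV list and above it in the SST list, so the counts below are descriptions, and how much of them comes from this was not tested. A group was called above or below the midpoint at an edgeR adjusted p under 0.05, with no minimum fold.

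By its medians SST hippocampus lay on the side of SST cortex in both lists. Every other group compared with the midpoint did so too, so this place was not particular to SST hippocampus. Among the 2230 features higher in SST cortex it was above the midpoint in 1157 (51.9%, against 18.6% of all features tested) and below it in 148 (6.64%, against 16.5%), with a median of 0.66 on the log2 scale. Among the 1493 features higher in PV it was below the midpoint in 687 (46%) and above it in 116 (7.77%), with a median of -0.55. PV cortex itself lay at a median of 0.76 from the midpoint in the PV list and of -0.98 in the SST list, with SST cortex equally far on the other side. SST hippocampus is titled with a W and comes from another region, and the effects of class, region and title cannot be separated in its position.

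VIP cortex, the third interneuron class, was not placed alike in both lists. Of the features higher in SST it was above the midpoint in 1205 (54%, against 32.6% of all tested) and below it in 282 (12.6%, against 26.4%). Of the features higher in PV it was above the midpoint in 451 (30.2%) and below it in 609 (40.8%), with quartiles of -1.17 and 1.32 around a median of -0.27. VIP cortex is titled with a W as well, while PV and SST cortex are not, so that class and title cannot be told apart here.

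Each excitatory population was called on the SST side of the midpoint more often than on the PV side in both lists. CamK cortex was above the midpoint in 1217 SST features (54.6%) and below it in 412 (18.5%), and among PV features above it in 239 (16%) and below it in 792 (53%), against 29.4% above and 27.9% below over all tested. CamK hippocampus was above in 1113 SST features (49.9%) and below in 501 (22.5%), and among PV features above in 184 (12.3%) and below in 847 (56.7%), against 28% and 29.9% over all tested. Grik hippocampus was above in 1001 SST features (44.9%) and below in 594 (26.6%), and among PV features above in 243 (16.3%) and below in 808 (54.1%), against 28.8% and 28.9% over all tested. Scnn cortex was above in 909 SST features (40.8%) and below in 521 (23.4%), and among PV features above in 436 (29.2%) and below in 634 (42.5%), against 30% and 26.3% over all tested. On the PV side, the share of Grik hippocampus in the SST list and that of Scnn cortex in the PV list were thus close to those over all features.

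Taken over all 6 groups, 307 PV features (20.6%) had every other group called below the midpoint, against 4.36% of all features tested, and 13 SST features (0.583%) had this pattern. Conversely 315 SST features (14.1%) had every other group called above the midpoint, against 3.53% of all tested, and 19 PV features (1.27%) had it. By group means, PV cortex ranked highest of the 8 groups for 843 of the PV features (56.5%), while SST cortex ranked highest for 519 of the SST features (23.3%). PV cortex was the lowest of the 8 groups for 1330 of the SST features (59.6%), and SST cortex the lowest for 278 of the PV features (18.6%). Over all features tested PV cortex ranked highest in 17.2% and lowest in 17.7%, and SST cortex in 6.68% and 6.42%. SST was sampled in 2 regions and PV in 1. These ranks use the PV and SST values that made the lists and are given without a test.

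**Figure D5:**
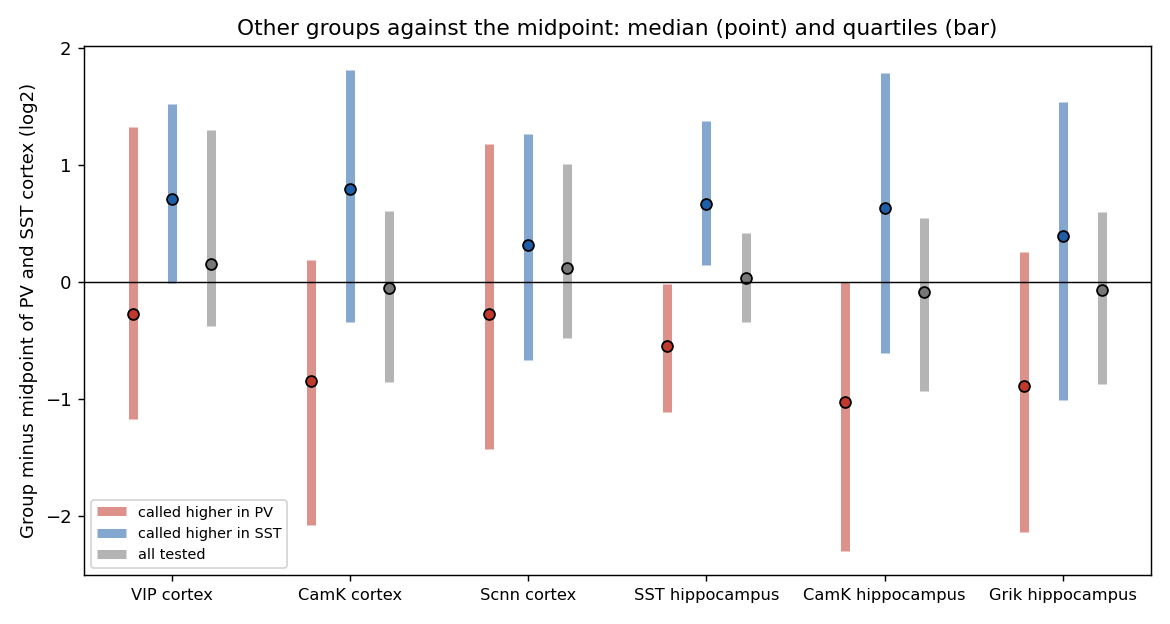
Difference of each other group from the midpoint of PV and SST cortex (log2, vertical axis), as the median (point) and quartiles (bar) over features called higher in PV (red), called higher in SST (blue) and all tested (grey). Red medians lie below 0 and blue medians above 0 in all 6 groups, from -0.27 (VIP cortex) to -1.03 (CamK hippocampus) and from 0.32 (Scnn cortex) to 0.79 (CamK cortex).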

How the data were processed

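The expected counts, that is estimated reads per feature that need not be whole, were deposited by the authors as 1 table of 56459 features, with a length per feature that the authors' header names only "length" and that is taken as bases. FastQC, Picard, SAMtools, featureCounts and the build GRCm38 are named per the submitters' processing notes, without role or order. The aligner, annotation and use of strand were not given in the sources used here, so overlapping features and near-identical copies are uncertain. Of values above 0, 20.1% were whole within 1e-06, and 93.5% of the whole values under 20 in the PV and SST libraries were even, as if both mates were counted. The table has 12 more columns of per-sample values, which match no label and were not used.

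Counts were rounded and fitted with edgeR 4.0.16 in R 4.3.3 over all 32 libraries (filterByExpr, TMM, robust quasi-likelihood, 1 coefficient per group, 24 residual degrees of freedom, Benjamini-Hochberg adjustment over all features tested). The standard error is the log2 difference over the square root of F. In each direction the features named are the called feature of largest fold whose higher group averaged 5 CPM or more, and the called feature with the largest difference in mean CPM, both without overlap between libraries. For correlations, distances and principal components, log2 CPM were computed with 2 as prior count. Alternatives used other scalings, filters, sets of libraries and calls, DESeq2 1.42.0, limma 3.58.1 (voom), halved counts, left-out replicates and a replicate block. The edgeR steps of the PV against SST contrast were run on simulated counts with the same spread in all features and groups. The fold minimum, intervals, midpoint contrasts and left-out libraries were not tested in this way. The comparison, its lists and the rule for named features were chosen with earlier results of these data known, and the left-out-library, combined-group and rank descriptions after these values were seen.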

Additional observations from a re-analysis of the deposited data

Results flagged for a closer look

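Of 54 sets of 4 values examined (named features in each group, library measures and shares in PV and SST), 7 held a library far from the other 3 by Dixon's ratio at its 95% critical value, where chance gives about 1 in 20. GSMG0015581 was at 132.4 CPM in PV replicate 1 against 18.7 to 35 CPM in the other PV libraries. PV replicate 3 had a smaller share of counts in its most abundant features than the other PV libraries. It had 5.53% against 7.41% to 7.79% for the 10 most abundant, 22.1% against 23.9% to 24% for the 100 most abundant, and 56.6% against 57.5% to 57.6% for the 1000 most abundant. The same library had the largest share in features bounded within 2-fold, 81.1% against 78.8% to 79.2%. SST replicate 1 had 20.8% of its counts in its 100 most abundant features against 21.6% to 21.7% in the other SST libraries. SST replicate 4 had 3.31% of its counts in features called higher in PV against 3.05% to 3.09%. These values share libraries and overlap in what they measure. Their causes were not tested.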

How the results depend on the processing

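The numbers of called features, in all and in each direction, stayed within 1.5 times under 20 of 22 alternatives. Without a minimum fold they were 9521 in all, 4396 higher in PV and 5125 higher in SST, and tested against 2-fold by glmTreat they were 1750, 504 and 1246. Without 1 replicate at a time 3485 to 3808 features were called, 1376 to 1598 higher in PV and 1982 to 2210 higher in SST. DESeq2 called 3924 features, of which 3625 were shared with the 3723 of edgeR in the same direction. Features bounded within 2-fold numbered 10496 to 10665 without 1 replicate. Without a filter on low counts they numbered 17288. This includes features with no counts in any PV or SST library, whose interval has no width. Of all features, 22466 were at 0 in the 8 PV and SST libraries and 15646 at 0 in all libraries. The 17288 therefore does not measure how many differences the data bound. The 4 named features kept their direction and an adjusted p under 0.05 in all 22 alternatives each, and the 6 midpoint counts stayed within 1.5 times under 4 alternatives each. With only the 8 PV and SST libraries in the fit, the edgeR adjusted p were less extreme. They were 1.95e-06 for GSMG0005550, 8.47e-08 for GSMG0030881, 1.22e-08 for GSMG0019206 and 0.00085 for GSMG0015581.

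PV and SST share replicate numbers, but same-numbered libraries deviated from their group means together only weakly (correlations of 0.111, -0.0151, 0.0288 and 0.0758 for numbers 1 to 4). PV replicates 1, 3 and 4 and SST replicates 1 and 4 correlated best with their own number. PV replicate 2 and SST replicates 2 and 3 correlated better with another number. The numbers were not taken as pairs, and a replicate block was fitted as an alternative. With the replicate block 3418 features were called in the 8 libraries (3458 without it) and 3578 in the 16 plainly numbered cortical libraries (3604 without it, a fit added after the data were seen).

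PV minus SST differences of library measures were less stable. For features detected the difference was -188.5 at 1 CPM, 104.2 at 0.1 CPM (exact permutation p = 0.714) and -311.2 at 10 CPM (exact permutation p = 0.0286), and -255.3 to -134.3 without 1 replicate. For the share in the most abundant features it was 0.947 percentage points with the 10 most abundant (exact permutation p = 0.171), and 1.87 to 2.53 without 1 replicate. When any SST replicate was left out, the exact permutation p was 0.0571. The difference was then 1.87 to 2.14, and the PV and SST libraries still did not overlap. With 7 libraries this p moves only in coarse steps, so its rise does not show a weaker difference. The difference in total count was -142700 without PV replicate 3 and up to 1994000 without another. The share of features bounded within 2-fold was 1.82% under 0.1 CPM, features with no PV or SST counts included, and 83.2% at 100 CPM or more. Whether depth sets this was not tested by level. With counts halved 3731 features were called and 10841 bounded.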
